A study of Mus musculus with 72 samples.

Results

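The microRNAs (miRNAs) of unirradiated mouse lung and liver were compared on 6 single-colour miRNA arrays, 3 for each tissue, out of 72 arrays in the series. Every mouse miRNA with a non-control probe on the array was a member, which gave 1881 miRNAs. Of these, 362 (19.2%) were well above the local background on at least 1 of the 6 arrays and were tested, and the other 1519 were not. Both groups came from female C57BL/6 J mice aged 6 to 8 weeks that had been placed in a plastic container, sham exposed at 0 Gy and harvested 48 h later, with total RNA including small RNA taken from the lung or the liver. Each group held samples 1, 11 and 21 of its tissue, and all values in threes are given in that order. The series also exposed mice to 5 doses from 1 to 12 Gy. The sources used here did not state whether the liver and lung that share a number came from 1 animal. The design text of the series speaks of hearts, whereas the sample labels give liver and lung, so the labels were checked against marker mRNAs on the mRNA arrays of the same labelled samples.

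All 15 hepatocyte marker mRNAs were higher in liver (19.5% of all genes tested were), with a median difference of -9.49 (log2, lung minus liver). In lung, where 27.3% of all genes tested were higher, all 8 alveolar type 2 and all 6 alveolar type 1 markers were higher, with medians of 8.85 and 7.63, and so were 7 of 8 airway markers. Both labels therefore carried the defining markers of their tissue. The 7 cardiac muscle markers were also higher in lung. On the miRNA arrays, 7.92 to 10.4% of spots were well above background in liver and 15.5 to 17.6% in lung, and no spot was saturated. Pearson correlations over all probes were 0.992 to 0.997 within liver, 0.992 to 0.994 within lung and 0.776 to 0.80 between tissues. The 3 liver arrays lay on 1 slide and the 3 lung arrays on another, so slide and tissue cannot be told apart within these 6 arrays.

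MiRNAs are short RNAs cut from hairpin precursors, and each hairpin can give a mature strand from its 5′ arm (5p) and its 3′ arm (3p). Inside an Argonaute protein the mature strand pairs with target mRNAs mainly through its seed, the bases 2 to 8 from its 5′ end, and lowers their stability and translation. MiRNAs that share a seed can bind the same sites, many are transcribed together from 1 cluster or from an intron of a host gene, and several are known as markers of a cell type. In whole tissue, fewer cells of a type and less RNA per cell cannot be told apart.

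Mature sequences came from RefSeq on GRCm38.p6, which matched 1608 of the 1881 miRNAs and 309 of the 362 tested. Sequences run 5′ to 3′ with the seed in capitals. The first set leads the liver and is shown with miR-148b-3p and miR-152-3p, which share the seed of miR-148a-3p but were not called.
miR-192-5p: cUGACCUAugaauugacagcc
miR-194-5p: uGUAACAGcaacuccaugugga
miR-802-5p: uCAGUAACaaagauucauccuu
miR-148a-3p: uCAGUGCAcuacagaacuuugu
miR-148b-3p: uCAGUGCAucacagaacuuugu
miR-152-3p: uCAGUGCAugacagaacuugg
MiR-192-5p lay at chr19:6264857-6264877 on the plus strand and miR-148a-3p at chr6:51269829-51269850 on the minus strand.

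The next set holds a single seed, that of the miRNAs of multiciliated airway cells, within which differences ran from 0.04 to 7.10.
miR-34a-5p: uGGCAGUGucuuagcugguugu
miR-34b-5p: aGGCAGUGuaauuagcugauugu
miR-449a-5p: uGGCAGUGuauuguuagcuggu
MiR-34b-5p lay at chr9:51103610-51103632 on the minus strand, miR-449a-5p at chr13:113037549-113037570 and miR-34a-5p at chr4:150068473-150068494, both on the plus strand.

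The miR-200 family is shown because its members were higher in lung from separate chromosomes, under a pair of near seeds.
miR-200b-3p: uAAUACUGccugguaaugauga
miR-200c-3p: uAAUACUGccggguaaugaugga
miR-429-3p: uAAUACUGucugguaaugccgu
miR-200a-3p: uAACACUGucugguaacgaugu
miR-141-3p: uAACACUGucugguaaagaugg
The hairpins of miR-200b, miR-200a and miR-429 lay together on chromosome 4, and those of miR-200c and miR-141 on chromosome 6.

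Endothelial miRNAs called in opposite directions, and muscle miRNAs that differed between lungs, follow.
miR-126a-3p: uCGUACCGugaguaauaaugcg
miR-139-5p: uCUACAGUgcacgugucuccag
miR-133b-3p: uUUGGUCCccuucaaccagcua
miR-206-3p: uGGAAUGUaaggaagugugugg
MiR-126a-3p lay at chr2:26591402-26591423 and miR-139-5p at chr7:101475382-101475403. The hairpins of miR-206 and miR-133b are neighbours, with the mature strands at chr1:20679055-20679076 and chr1:20682834-20682855.

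The miR-15/16 family is shown because members with 1 seed split between those higher in lung and those not called, and miR-503-5p is set beside them with a near seed.
miR-15a-5p: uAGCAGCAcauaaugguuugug
miR-16-5p: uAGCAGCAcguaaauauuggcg
miR-195a-5p: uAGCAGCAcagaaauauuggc
miR-497a-5p: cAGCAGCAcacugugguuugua
miR-322-5p: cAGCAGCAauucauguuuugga
miR-503-5p: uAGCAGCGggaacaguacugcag
The last sets are miR-193a-3p and miR-193b-3p, which share a seed and were called in opposite directions, and 3 GC-rich miRNAs among those higher in liver.
miR-193a-3p: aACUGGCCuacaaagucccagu
miR-193b-3p: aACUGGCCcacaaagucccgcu
miR-5126: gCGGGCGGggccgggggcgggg
miR-3102-5p: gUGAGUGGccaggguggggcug
miR-8110: aAGCGUGGauugggggggggg

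Of the 362 miRNAs tested, 99 were higher in lung (27.3% of those tested), 63 were higher in liver (17.4%) and 200 were not called, so that 44.8% were called in either direction. A level is the log2 of the normalised intensity, and a difference is lung minus liver on that scale, so a negative difference is higher in liver. A miRNA was called when its difference exceeded 1 in size with an adjusted p under 0.05 (limma, two-sided, Benjamini-Hochberg over all 362). The median difference over all miRNAs tested was 0.41 and the median SE 0.14. For 278 miRNAs (76.8%), called or not, the 3 values of one tissue did not overlap those of the other. Lung had more miRNAs above background, 247 on all 3 arrays against 150 in liver. Only 144 were above background on all 6 arrays, and among these 27 were higher in lung and 47 in liver, with a median difference of -0.33. A further 85 were above background on all lung arrays and on no liver array, and 61 of them were called.

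A miRNA below background in a tissue has no measured level there, so its difference in level is followed by a lower bound on the fold, taken against the dimmest signal that was above background. Each bound was taken under the quantile normalisation used for the calls and can fail under another scaling. Of the 61 called miRNAs above background on every lung array and on no liver array, 16 had a bound of at least 2-fold, 19 a bound of 1 to 2 and 26 a bound under 1. For these 26 no fold is given, and their calls rest on readings near background in liver. A difference printed for a miRNA below background in liver is the fitted one, and it is set by such readings. The 3 miRNAs above background on all liver arrays and on no lung array were all called, and all are hepatocyte miRNAs.

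The counts depended on how the arrays were scaled to each other. The 75th percentile of probes detected on all arrays gave 46 higher in lung and 194 in liver, with a median difference of -1.12 over the miRNAs tested. The 75th percentile of all probes gave 210 and 7 (median 1.29), and the values deposited for the series gave 202 and 11 (median 1.75). Under these, a normexp offset of 50 (64 and 54) and the scanner's processed signal (157 and 68), 42 of the 99 calls in lung and 6 of the 63 in liver were made in the same direction under all 5. The 6 were both arms of miR-122 and miR-192, miR-194-5p and miR-148a-3p. With slide as a block over all 36 miRNA arrays, 105 were higher in lung and 49 in liver, of which 82 and 47 were among the original calls. That block ended the calls of 13 miRNAs named here, which are miR-1a-3p, miR-133a-3p, miR-133a-5p, miR-133b-3p, miR-205-5p, miR-203-3p, miR-141-5p, miR-144-3p, miR-329-3p, miR-376a-3p, miR-30b-5p, miR-24-1-5p and miR-351-5p. The quantile scaling and the other 5 are called the 6 scalings here. Lists of miRNAs known from a cell type or family are described by their counts and medians and were not tested as lists. Their counts are to be read beside the 27.3% of all miRNAs tested that were higher in lung and the 17.4% higher in liver.

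**Figure D1:**
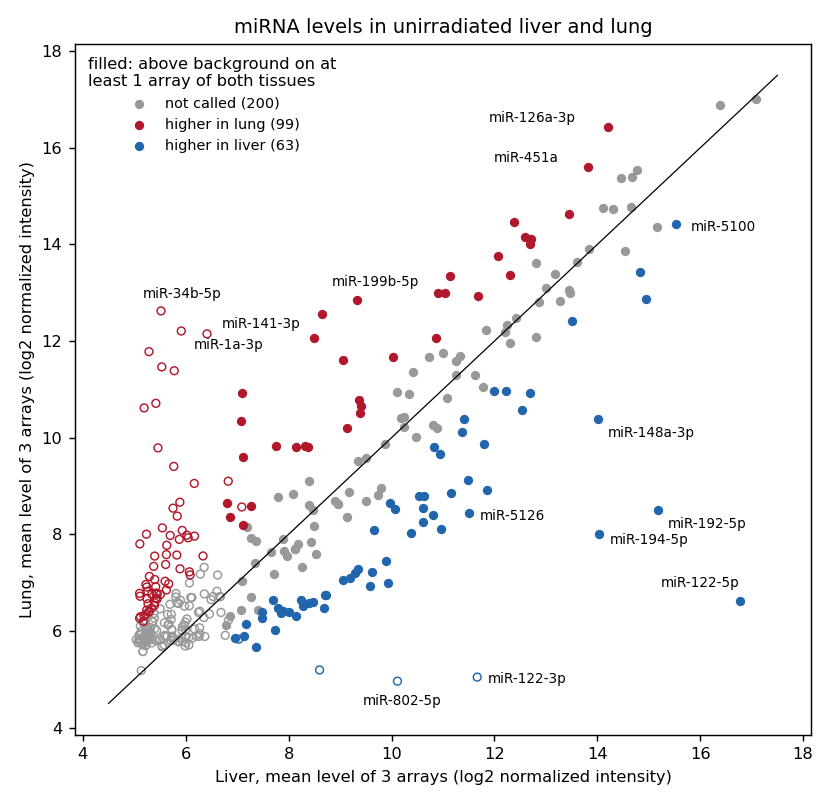
Mean level (log2 normalised intensity) of each of the 362 tested miRNAs in 3 liver samples (x axis) and 3 lung samples (y axis); red marks the 99 called higher in lung, blue the 63 called higher in liver and grey the 200 not called, and the line marks equal levels. Open circles had no array above background in one of the tissues; the red open circles form a column at the left edge, while miR-122-5p and miR-192-5p lie at the lower right.

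All 7 tested miRNAs of 9 on the hepatocyte list were higher in liver, with a median difference of -6.01 beside 0.41 over all miRNAs tested. The median stayed between -7.62 and -3.85 over the 6 scalings, and 6 or 7 members were called in each. MiR-122-5p is the main miRNA of hepatocytes and is known for its part in cholesterol and lipid metabolism. Its levels were 16.79, 16.77 and 16.75 in liver and 6.37, 6.47 and 7.02 in lung. All liver samples lay far above all lung samples, and the difference was -10.15 (SE 0.18, adjusted p = 1.26e-07), a 1138-fold higher intensity in liver. The other arm of its hairpin, miR-122-3p, read 11.76, 11.66 and 11.58 in liver, was not above background in lung and was at least 59.2-fold higher in liver (adjusted p = 4.14e-08).

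MiR-192-5p and miR-194-5p, which hepatocyte and gut epithelial transcription factors drive from shared transcripts, followed. MiR-192-5p was at 15.18, 15.19 and 15.19 in liver and 8.49, 8.58 and 8.46 in lung, a difference of -6.68 (SE 0.08, adjusted p = 3.49e-08). MiR-194-5p was at 13.99, 14.04 and 14.06 in liver and 8.06, 8.08 and 7.90 in lung, a difference of -6.01 (SE 0.09, adjusted p = 4.71e-08). The hairpin of miR-192 and 1 hairpin of miR-194 lay at chr19:6264643-6264932, and all 3 tested mature strands placed there were higher in liver. MiR-194-5p has 2 loci, the other at chr1:185313325-185313346, and the array cannot tell which of them its signal came from. MiR-192-3p was not above background in lung and was at least 7.07-fold higher in liver. MiR-148a-3p, which is known to act on the low-density lipoprotein receptor in liver, was at 14.09, 13.96 and 14.00 in liver and 10.40, 10.45 and 10.32 in lung. Its difference was -3.63 (SE 0.08, adjusted p = 3.36e-07), while miR-148b-3p and miR-152-3p, with the same seed, differed by -0.34 and -0.54 and were not called.

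MiR-802-5p, a miRNA of liver and kidney with a known part in glucose metabolism, read 10.30, 9.95 and 10.09 in liver and was not above background in lung. It was at least 20.2-fold higher in liver (adjusted p = 3.36e-07), and it was called under every scaling but the deposited series values, where its difference was -3.38. In irradiated mice, whose arrays took no part in these calls, the miR-122-5p difference was between -11.36 and -9.71 over the 5 doses and that of miR-192-5p between -6.62 and -6.48.

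**Figure D2:**
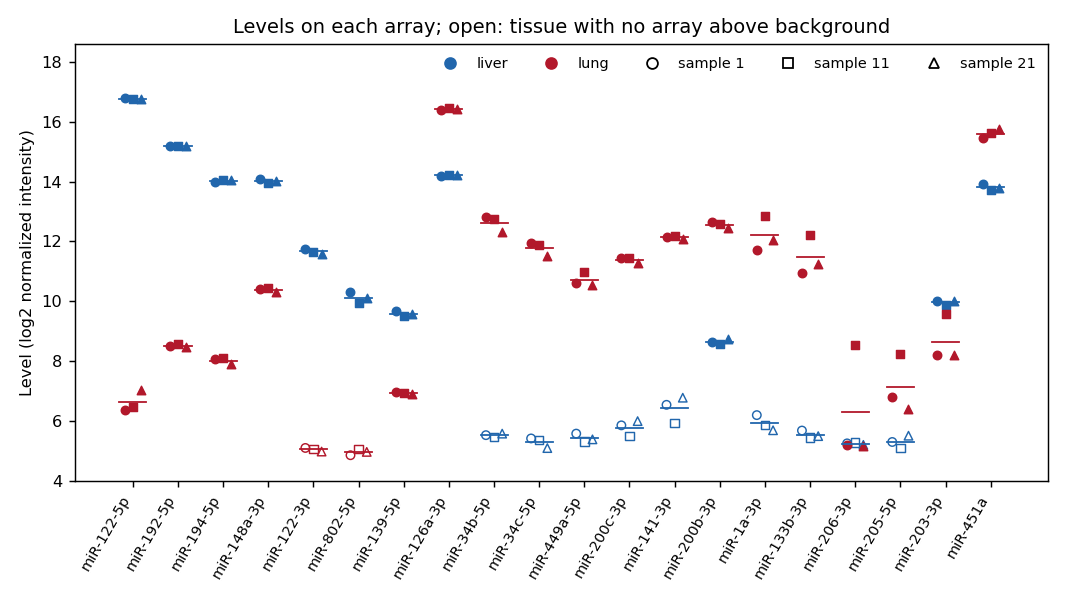
Level (log2 normalised intensity, y axis) of 20 miRNAs (x axis) on each of the 3 liver and 3 lung arrays. Open symbols mark a tissue with no array above background. The hepatocyte miRNAs, at the left, stand high in liver, and miR-206-3p has 1 lung sample at 8.55 with the others near 5.2.

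Multiciliated cell miRNAs were called higher in lung for 5 of 6 tested members and in liver for none. None of the 6 was above background on any liver array. The 6 scalings gave 3 to 6 calls in lung, and under the 75th percentile of probes detected on all arrays 1 member was called in liver and miR-34b-3p turned to -0.39. The miR-34 and miR-449 families are known to be needed for the formation of motile cilia in airway epithelium. MiR-34b-5p was at 12.81, 12.74 and 12.33 in lung, while the liver readings of 5.52, 5.47 and 5.57 were not above background. It had the largest difference of the calls in lung, 7.10 (SE 0.14, adjusted p = 2.21e-07), and was at least 44.6-fold higher in lung. MiR-34c-5p, from the same cluster at chr9:51103034-51103645, was at 11.96, 11.88 and 11.50 in lung and at least 24.9-fold higher. MiR-449a-5p was at 10.61, 10.98 and 10.54 in lung, with no liver array above background, and was at least 11.8-fold higher (adjusted p = 6.18e-07). MiR-34c-3p was at least 1.58-fold higher, and the bounds of miR-34b-3p and miR-449c-5p were under 1.

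MiR-34a-5p, which has the same seed and is known as a target of p53 in many cell types, did not follow them. Its levels were 10.97, 11.23 and 11.57 in liver and 11.33, 11.35 and 11.21 in lung, so that the tissues overlapped, and its difference was 0.04 (SE 0.16, adjusted p = 0.838). In irradiated mice miR-34b-5p and miR-449a-5p were called higher in lung at all 5 doses.

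Of 11 tested epithelial miRNAs, 10 were higher in lung and 1 in liver, with a median of 2.77 and medians between 0.83 and 4.42 over the 6 scalings. The miR-200 family is known to keep cells epithelial by repressing Zeb1 and Zeb2. MiR-200b-3p was at 8.63, 8.56 and 8.73 in liver and 12.64, 12.58 and 12.43 in lung, a difference of 3.91 (SE 0.10, adjusted p = 3.36e-07), or 15.1-fold. MiR-200a-3p, its neighbour, was at 8.49, 8.46 and 8.50 in liver and 12.17, 12.07 and 11.96 in lung and differed by 3.58 (SE 0.09, adjusted p = 3.36e-07). All 5 mature strands tested from that cluster, at chr4:156053905-156055750, were higher in lung, but miR-200a-5p lost its call without lung sample 11, at 0.995. From the second cluster, at chr6:124717914-124718390, 3 of 3 were higher in lung. There miR-141-3p read 12.16, 12.19 and 12.09 in lung and miR-200c-3p 11.44, 11.43 and 11.28, neither was above background in liver, and they were at least 32.1-fold and 18.9-fold higher in lung. MiR-200a-5p, miR-200b-5p and miR-141-5p of these clusters were below background in liver with bounds under 1, and under the 75th percentile of probes detected on all arrays they turned to -1.01, -0.74 and -1.06. MiR-141-5p was at 0.81 with slide as a block and was no longer called.

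MiR-375-3p, a miRNA of endocrine and secretory epithelial cells, was at least 1.81-fold higher in lung. All 3 tested members of the miR-183 cluster, known from sensory cells and many epithelia, were higher in lung, with differences of 1.67 to 2.50, although miR-183-5p and miR-182-5p were not above background in liver. MiR-205-5p, which marks basal and squamous epithelia, was at 6.78, 8.22 and 6.39 in lung and not above background in liver. It was called (adjusted p = 0.0114), but its bound was under 1, so no fold is given, and under the 75th percentile of probes detected on all arrays its sign turned. MiR-203-3p, known from differentiating skin, was the exception of the list. It was at 10.01, 9.87 and 10.01 in liver and 8.20, 9.57 and 8.19 in lung, a difference of -1.31 (SE 0.38, adjusted p = 0.0192) that turned to 1.29 under the 75th percentile of all probes. Lung sample 11 stood 1.37 above the other lungs for miR-203-3p and 1.43 above them for miR-205-5p, and without it the fitted differences moved from -1.31 to -1.71 and from 1.84 to 1.18. Both calls were lost with slide as a block, at -0.94 (adjusted p = 0.453) and 2.35 (adjusted p = 0.145). In irradiated mice miR-203-3p was between -1.17 and -0.12 and was called at 1 Gy only. The call of miR-203-3p was lost without liver sample 1 (-1.31), liver sample 21 (-1.31), lung sample 1 (-1.06) or lung sample 21 (-1.07).

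The 4 tested endothelial miRNAs split, with 2 higher in lung and 1 in liver, and their median of 0.41 ran between -0.62 and 1.79 over the 6 scalings, so the list has no settled direction. MiR-126a-3p, which lies in an intron of Egfl7 and is known to favour VEGF signalling in endothelium, was at 14.19, 14.23 and 14.22 in liver and 16.39, 16.46 and 16.43 in lung. All lungs were above all livers, with a difference of 2.22 (SE 0.07, adjusted p = 1.25e-06), or 4.64-fold. MiR-126a-5p differed by 1.12 (SE 0.13, adjusted p = 0.000291), and in irradiated mice by 0.63 to 1.19, called at 1 and 8 Gy only. MiR-139-5p, in an intron of Pde2a, went the other way. It was at 9.66, 9.51 and 9.57 in liver and 6.97, 6.94 and 6.89 in lung, a difference of -2.65 (SE 0.08, adjusted p = 8.81e-07). On the mRNA arrays all 9 endothelial markers were higher in lung (27.3% of all genes tested were). Their summed level was 13.90 to 14.02 in liver and 17.06 to 17.46 in lung (log2). Its part in the miRNA result was not tested.

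**Figure D3:**
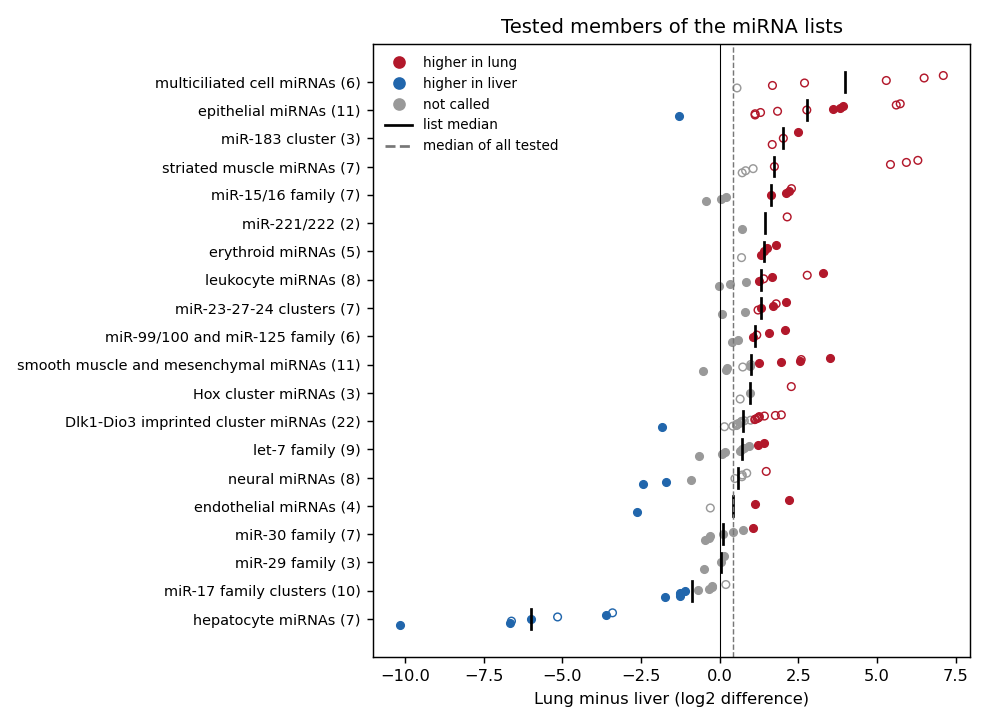
Lung minus liver difference (log2, x axis) of each tested member of the miRNA lists (y axis); colour gives the call, open circles had no array above background in one tissue, and the dashed line marks the median of all miRNAs tested, 0.41. The hepatocyte list lies wholly to the left, from -10.15 to -3.41, and the multiciliated list reaches 7.10.

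Striated muscle miRNAs were called higher in lung for 4 of 7 tested members and in liver for none. Their median of 1.74 ran between -0.32 and 5.49 over the 6 scalings. MiR-1a-3p and the miR-133 miRNAs are the main miRNAs of heart and skeletal muscle. MiR-1a-3p was at 11.73, 12.86 and 12.04 in lung, was not above background in liver, and was at least 33.4-fold higher in lung (adjusted p = 5.69e-06). MiR-133b-3p was at 10.95, 12.21 and 11.24 in lung and miR-133a-3p at 10.11, 11.30 and 10.44, with bounds of at least 20.0-fold and 11.1-fold. Lung sample 11 was the highest of the lungs for all 3. Without it their differences were 5.67, 5.23 and 4.79, and each was still called. With slide as a block over all 36 arrays, none of the 3 was called, at 2.37 (adjusted p = 0.227), 2.01 (adjusted p = 0.312) and 2.16 (adjusted p = 0.196), nor was miR-133a-5p, at 0.16 (adjusted p = 0.872). That fit took in livers 13 and 23 at 2 Gy, which read 9.30 and 12.8 for miR-1a-3p, and their part in it was not tested. In irradiated mice all 3 were called higher in lung at 5 doses, with miR-1a-3p at 3.22 to 7.68.

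MiR-206-3p, which is specific to skeletal muscle, was at 5.21, 8.55 and 5.15 in lung and 5.25, 5.28 and 5.20 in liver. Only lung sample 11 stood apart and was above background, and the difference of 1.06 (SE 0.91, adjusted p = 0.335) was not called. MiR-208a-3p and miR-208b-3p, which lie in introns of the cardiac myosin genes Myh6 and Myh7, were not called, at 0.82 (SE 0.12, adjusted p = 0.000878) and 0.71 (SE 0.15, adjusted p = 0.00559). Neither was above background in liver, and in lung only 1 and 2 arrays were. On the mRNA arrays all 7 cardiac markers were higher in lung (27.3% of all genes tested were). Their summed level was 17.16, 16.33 and 17.14 in lung and 10.73 to 10.89 in liver, where 1 of 7 had no array above background.

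Sums of 8 skeletal muscle and of 8 squamous epithelium mRNAs, both lists chosen after their values were seen, set lung sample 11 apart. The skeletal muscle sum was 11.80, 16.01 and 11.51 in lung and 9.37 to 9.42 in liver, where 6 of the 8 had no array above background. The squamous sum was 12.68, 15.66 and 12.41 in lung and 9.74 to 10.02 in liver, where 5 of 8 had none. The part of such tissue in the levels of miR-206-3p, miR-205-5p and miR-203-3p was not tested. Over 15 irradiated lungs, miR-206-3p ran from 5.09 to 9.18 with a median of 8.49, and 11 lungs were over 8. MiR-205-5p ran from 6.29 to 8.94 there, and miR-203-3p from 8.14 to 10.4. Among 15 irradiated livers the median of miR-1a-3p was 5.58, yet 2 livers were over 8 and sample 23 at 2 Gy reached 12.8, with miR-133a-3p and miR-133b-3p at 11.6 and 12.3.

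**Figure D4:**
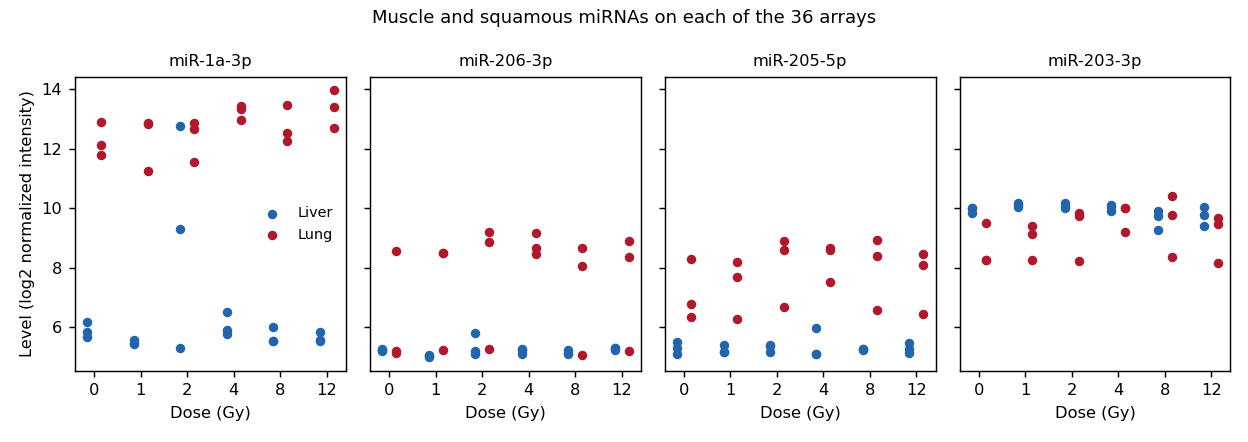
Levels (log2 normalised intensity, y axis) of muscle and squamous epithelium miRNAs on each of the 36 miRNA arrays by dose (Gy, x axis), with 18 lungs and 18 livers, each point 1 array. The 36 arrays were normalised together here. MiR-206-3p was near 5.2 in unirradiated lungs 1 and 21 and 8.57 in lung 11, and ran up to 9.18 in irradiated lungs. MiR-1a-3p reached 12.8 in 1 irradiated liver.

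Among 11 tested smooth muscle and mesenchymal miRNAs, 5 were higher in lung, none in liver and 6 were not called. The median was 0.99, and it was between 0.56 and 3.34 over the 6 scalings. MiR-199b-5p, of a family transcribed opposite the dynamin genes in mesenchymal cells, was at 9.16, 9.37 and 9.47 in liver and 12.81, 12.88 and 12.84 in lung, a difference of 3.51 (SE 0.10, adjusted p = 7.96e-07). MiR-143-3p, which with miR-145a-5p marks smooth muscle, averaged 9.05 ± 0.16 (SD, n = 3) in liver and 11.61 ± 0.09 in lung without overlap and differed by 2.56 (SE 0.11, adjusted p = 3.84e-06). MiR-145a-5p had a bound of at least 1.98-fold where liver was below background. MiR-199a-3p and miR-199a-5p differed by 1.95 and 1.26. MiR-218-5p, from introns of the Slit genes, was at least 6.25-fold higher in lung, and miR-146b-5p, known from inflammatory signalling, at least 4.79-fold.

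Leukocyte miRNAs were higher in lung for 5 of 8 tested and in liver for none, with a median of 1.32 that was between 1.06 and 3.53 over the 6 scalings. MiR-150-5p, a miRNA of mature lymphocytes, was at 8.47, 8.74 and 8.79 in lung, was not above background in liver and was at least 2.87-fold higher. MiR-142a-3p, found in all blood cell lineages, was at 11.79, 11.54 and 11.73 in liver and 12.76, 12.97 and 13.08 in lung and differed by 1.25 (SE 0.12, adjusted p = 0.00012). In irradiated mice it was between 0.24 and 1.03 and was called at 1 Gy only. MiR-142a-5p differed by 1.66, and miR-181a-5p, known from thymocytes, by 3.28. MiR-155-5p of activated lymphocytes was not above background in liver and was at least 1.1-fold higher. Under the 75th percentile of probes detected on all arrays it turned to -0.34, so this bound did not hold under every scaling. The myeloid miR-223-3p was not called, with 11.32, 11.22 and 11.25 in liver and 11.75, 11.59 and 11.42 in lung and a difference of 0.33 (SE 0.11, adjusted p = 0.0293). Neither was miR-342-3p (-0.01). On the mRNA arrays 27.3% of all genes tested were higher in lung and 19.5% in liver. There 5 of 6 B cell, 5 of 6 T cell and 4 of 6 neutrophil markers were higher in lung. In liver 1 T cell and 1 neutrophil marker were higher, at -1.46 and -2.98. The summed levels in liver and lung were 10.19 to 10.80 and 13.25 to 14.55 for B cells, 12.43 to 12.58 and 12.65 to 14.80 for T cells and 12.00 to 12.11 and 14.53 to 14.64 for neutrophils, and their part in the miRNA levels was not tested.

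Erythroid miRNAs were higher in lung for 4 of 5 tested, with a median of 1.42 that was between 0.37 and 2.80 over the 6 scalings. MiR-451a, which Argonaute-2 cuts without Dicer and which fills red blood cells, was at 13.93, 13.72 and 13.80 in liver and 15.44, 15.62 and 15.76 in lung. The lungs were above the livers, with a difference of 1.78 (SE 0.11, adjusted p = 1.87e-05), or 3.45-fold. All 3 mature strands tested from the cluster of miR-144 and miR-451 at chr11:78073005-78073241 were higher in lung, but with slide as a block miR-144-3p was at 0.91 (adjusted p = 0.0679) and not called. MiR-486a-5p, from Ank1, differed by 1.31 (SE 0.29, adjusted p = 0.00627) and lost its call without liver sample 11, at 0.996. The 3 erythroid marker mRNAs that were tested split, with 2 higher in lung and 1 in liver.

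In the miR-15/16 family, whose members restrain the cell cycle, 4 of 7 were higher in lung and none in liver. The median was 1.63 and was between 0.50 and 4.01 over the 6 scalings. MiR-195a-5p was at 11.24, 11.09 and 11.09 in liver and 13.44, 13.36 and 13.24 in lung and differed by 2.21 (SE 0.09, adjusted p = 3.77e-06). MiR-497a-5p, from the same transcript, differed by 2.09 (SE 0.08, adjusted p = 2.27e-06), and miR-322-5p on the X chromosome by 1.63 (SE 0.08, adjusted p = 5.00e-06). MiR-503-5p was not above background in liver and was at least 1.78-fold higher in lung. MiR-15a-5p, miR-15b-5p and miR-16-5p were not called, with differences of -0.45, 0.05 and 0.19. The cluster at chrX:53047997-53054349 that holds miR-322 and miR-503 also gives the miR-450 and miR-542 strands, and 8 of its 9 tested strands were higher in lung. Of these 8 only miR-322-5p was above background in liver, and 3 had a bound under 1.

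In the miR-23-27-24 clusters, known from vessels and haematopoietic cells, 5 of 7 were higher in lung, with a median of 1.31 and medians between 0.72 and 3.27 over the 6 scalings, and miR-24-1-5p was lost with slide as a block, at 0.82 (adjusted p = 0.146). The strands of the cluster at chr8:84208518-84208921 were higher in 4 of 4 cases, among them miR-23a-3p (2.10) and miR-27a-3p (1.69). MiR-24-3p (1.31) is counted there, but the other cluster, at chr13:63300484-63301275, gives the same mature strand. Of the 3 tested strands placed in that other cluster, 2 were higher in lung, miR-24-3p and miR-24-1-5p (1.22). The near relatives of miR-23a-3p and miR-27a-3p from the other cluster, miR-23b-3p (0.82) and miR-27b-3p (0.09), were not called. Since the strands of each pair are near-identical, their probes may share signal, which was not tested. The let-7 family, which holds cells in a differentiated state, had 2 of 9 higher in lung (27.3% of all miRNAs tested were), let-7i-5p (1.39) and let-7e-5p (1.20), while let-7g-5p was at -0.67. Its median of 0.71 was between 0.16 and 2.56 over the 6 scalings. The miR-99/100 and miR-125 family had 4 of 6 higher in lung, with miR-99b-5p at 2.07 (SE 0.16, adjusted p = 4.30e-05), and its median of 1.12 was between 0.80 and 3.35. MiR-125a-5p lost its call without liver sample 1, at 0.88, and miR-351-5p without lung sample 21, at 0.989. MiR-351-5p was below background in liver with a bound under 1, was at 0.95 with slide as a block, and turned to -1.09 under the 75th percentile of detected probes.

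The miR-17 family clusters, known to drive proliferation, were the list with most calls in liver after the hepatocyte list, with 5 of 10 higher in liver and none in lung. Their median of -0.89 ran between -0.97 and 1.44, since 8 of 10 were called higher in lung under another scaling. MiR-92a-3p was at 12.72, 12.66 and 12.68 in liver and 10.96, 10.84 and 11.00 in lung, a difference of -1.75 (SE 0.08, adjusted p = 5.00e-06) that became 0.81 under the 75th percentile of all probes. MiR-19a-3p, miR-20a-5p, miR-20b-5p and miR-19b-3p differed by -1.28, -1.26, -1.25 and -1.11. In the Dlk1-Dio3 imprinted region 9 of 22 were higher in lung and 1, miR-494-3p (-1.84), in liver, and the median of 0.74 ran between -1.42 and 3.29 over the scalings. None of the 9 was above background in liver. MiR-127-3p was at least 1.17-fold and miR-136-5p at least 1.35-fold higher in lung, and the other 7 had bounds under 1. Under the 75th percentile of probes detected on all arrays miR-127-3p turned to -0.088. MiR-494-3p turned to 0.86 under the 75th percentile of all probes. The calls for miR-329-3p, miR-376a-3p, miR-377-3p and miR-379-5p were lost without lung sample 11, at 0.97, 0.98, 0.95 and 0.97, and those for miR-329-3p and miR-376a-3p also with slide as a block, at 0.96 and 0.81.

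Of 8 tested neural miRNAs 1 was higher in lung and 2 in liver, with medians between -1.50 and 1.78 over the scalings. MiR-212-3p, known from neurons, was at 9.93, 9.70 and 10.02 in liver and 7.34, 7.71 and 7.31 in lung, a difference of -2.43 (SE 0.15, adjusted p = 1.50e-05) that became 0.086 under the 75th percentile of all probes. MiR-137-3p differed by -1.71 with 1 array above background in each tissue, and miR-128-3p was at least 2.55-fold higher in lung. The neuronal miR-124-3p was above the other lungs in sample 1 alone, at 7.12, 5.17 and 5.21, and was not called. The miR-30 family had 1 of 7 higher in lung, miR-30b-5p, which was at 0.76 with slide as a block and not called, the miR-29 family 0 of 3, the Hox cluster miRNAs 1 of 3 and the pair of miR-221 and miR-222 1 of 2 tested strands. The medians of the miR-29 and miR-30 families ran from -0.60 to 1.80 and from -0.09 to 2.32 over the 6 scalings. None of 3 pancreatic acinar and none of 11 pluripotent cell miRNAs was above background on any array.

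The lists took in 146 of the tested miRNAs and 83 of the 162 calls, 66 in lung and 17 in liver. Most calls in liver were thus outside them. Among the miRNAs above background on all arrays of both tissues, miR-5126 followed the hepatocyte miRNAs, with 11.52, 11.61 and 11.37 in liver and 8.72, 8.40 and 8.23 in lung and a difference of -3.05 (SE 0.15, adjusted p = 5.63e-06). MiR-3102-5p, miR-3473g and miR-3960 differed by -2.95, -2.95 and -2.86. Of the 5 other scalings, 3 called miR-5126, miR-3473g and miR-3960 higher in liver, and 4 called miR-3102-5p so. MiR-378a-3p, which lies in the metabolic coactivator gene Ppargc1b, differed by -2.35 (SE 0.23, adjusted p = 0.000127) and turned to 0.30 under the 75th percentile of all probes. MiR-101b-3p, in Rcl1, was at 8.72, 8.66 and 8.70 in liver and 6.53, 6.52 and 6.37 in lung and differed by -2.22 (SE 0.08, adjusted p = 2.39e-06). MiR-8110, miR-378a-3p and miR-101b-3p were chosen after their values were seen.

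Base composition was set beside the calls. The median GC content of the mature sequence was 45.5% over 83 miRNAs higher in lung, 54.5% over 53 higher in liver and 47.8% over 173 not called. Of 16 tested miRNAs with a GC content of at least 70%, 8 were higher in liver and none in lung. Over all miRNAs tested, 17.4% were higher in liver and 27.3% in lung. Only 3 of the 8 were above background on all 6 arrays. These 3 were miR-5126, all of whose bases are G or C, miR-3102-5p (72.7%) and miR-8110 (71.4%). Among miRNAs above background on all 6 arrays the medians were 40.9% over 23 higher in lung and 54.4% over 40 higher in liver. These values are a description over miRNAs, which share arrays and probes of like composition, and they were not tested.

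Of all 362 miRNAs tested, 44.8% were called, 27.3% in lung and 17.4% in liver. A seed or cluster with several members can thus hold a call without any tie between them. No expected number was set beside the counts that follow. Seeds shared by at least 2 tested miRNAs numbered 33, and 25 of them held a call. In 18 all calls were in lung, in 6 all were in liver, and 1 held both. That seed belonged to the miR-193 miRNAs. MiR-193a-3p was at 12.63, 12.50 and 12.47 in liver and 10.55, 10.57 and 10.63 in lung, a difference of -1.95 (SE 0.08, adjusted p = 3.84e-06). MiR-193b-3p was at 6.96, 6.12 and 7.30 in liver, where 1 array was above background, and averaged 8.64 ± 0.32 (SD, n = 3) in lung, a difference of 1.84 (SE 0.33, adjusted p = 0.00247). MiR-193a-3p turned to 0.59 under the 75th percentile of all probes. The seed of miR-181a to miR-181d was the reverse case, with all 4 higher in lung. MiR-181a-5p was above background on 2 liver arrays, and miR-181b-5p, miR-181c-5p and miR-181d-5p, on none, were at least 2.63-fold, 3.75-fold and 1.32-fold higher. Hairpins within 10 kb of each other on 1 strand formed 34 clusters with tested miRNAs, of which 23 held a call, 18 in lung only, 4 in liver only and 1 in both, a part of the Dlk1-Dio3 region at chr12:109709060-109747960. A mature strand with several loci was counted in each of its clusters, so these counts are not of separate miRNAs. Examples are miR-19b-3p and miR-92a-3p in liver, and miR-24-3p, miR-181a-5p and miR-181b-5p in lung.

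Both arms of 63 hairpins were tested. Both were called the same way in 18, only 1 in 19 and neither in 26, and no hairpin had arms called in opposite directions. Of the 10 hairpins with both arms above background on all 6 arrays, 8 had arms that differed in the same direction. The arms of miR-652 did not, with miR-652-5p at 9.39, 9.03 and 9.14 in liver and 6.85, 7.18 and 7.25 in lung and a difference of -2.09 (SE 0.15, adjusted p = 3.28e-05), while miR-652-3p stood at 0.94 and was not called.

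Many miRNAs lie inside a host gene, whose mRNA was read on the mRNA arrays of the same labelled samples. On those arrays 18474 genes were tested, of which 5043 were higher in lung and 3600 in liver, 46.8% in either direction. Of 36 pairs with both partners tested, miRNA and host were both higher in lung in 8, both higher in liver in 3 and neither called in 16. The pairs higher in lung included miR-218-5p with Slit3, a guidance ligand, whose mRNA was not above background in liver and was at least 35.5-fold higher in lung. Egfl7, which holds miR-126a and is secreted by endothelium, differed by 3.12 (SE 0.14, adjusted p = 3.69e-06). Ank1, the red cell ankyrin gene that holds miR-486a, and Cdc20b, which holds miR-449a, were below background in liver too and at least 9.7-fold and 1.96-fold higher. The pairs higher in liver were miR-101b-3p with Rcl1 (-3.44), miR-378a-3p with Ppargc1b (-2.40) and miR-139-5p with Pde2a (-1.33).

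In the remaining pairs only a single partner was called. In 3 the miRNA was higher in lung and the host not called, miR-128-3p with R3hdm1, miR-338-3p with Aatk and miR-204-5p with Trpm3. In 5 the host was higher in lung and the miRNA not called. Among them the cardiac myosin gene Myh6 differed by 7.76 (SE 0.52, adjusted p = 2.33e-05) and Myh7, below background in liver, was at least 60.1-fold higher, beside differences of 0.82 and 0.71 for miR-208a-3p and miR-208b-3p. Evl, the host of miR-342, differed by 2.48 beside -0.01 for miR-342-3p. In 1, Pank1, the pantothenate kinase gene that holds miR-107, was higher in liver (-4.67) while miR-107-3p stood at -0.72. No pair had miRNA and host called in opposite directions.

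**Figure D5:**
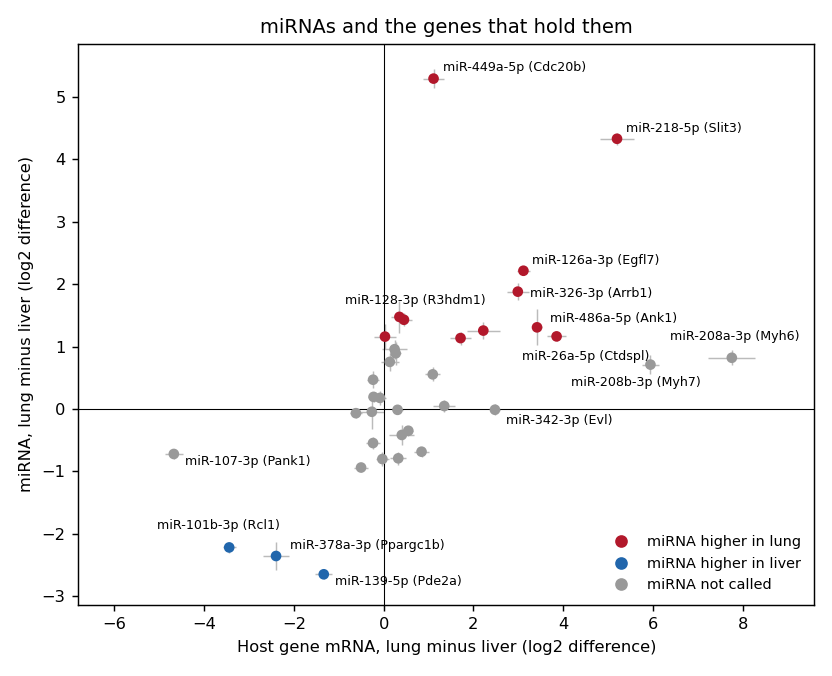
Lung minus liver difference (log2) of host gene mRNAs (x axis) and of the miRNAs they hold (y axis) for 36 pairs, with lines of 1 SE; colour gives the call of the miRNA. MiR-218-5p with Slit3 lies at the upper right (5.20, 4.33), and miR-208a-3p lies near the horizontal axis with Myh6 at 7.76.

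The comparison could be repeated in irradiated mice, which share no array with the calls at 0 Gy. Of the 99 miRNAs higher in lung, 90 were called higher in lung again at 1 Gy, 93 at 2 Gy, 93 at 4 Gy, 89 at 8 Gy and 91 at 12 Gy, and all 99 kept their sign at each dose. Of the 63 higher in liver, 63, 51, 56, 59 and 49 were called again at these doses in turn, and 63 kept their sign at each dose but 12 Gy, where 61 did. In these comparisons 46.7, 45.9, 45.9, 45.9 and 45.3% of all 362 miRNAs were called in either direction. At all 5 doses 83 of the 99 and 44 of the 63 were called. Among the miRNAs named here, 13 were not called at every dose. MiR-142a-3p and miR-203-3p were called at 1 dose, miR-126a-5p, miR-128-3p, miR-30b-5p and miR-351-5p at 2, miR-125a-5p, miR-142a-5p and miR-19b-3p at 3, and let-7e-5p, miR-376a-3p, miR-377-3p and miR-5100 at 4. The irradiated arrays were normalised together with the unirradiated ones for these values, so the scaling described above applies to them too. At each of the 5 doses no slide held both tissues of that dose. Slide and tissue thus cannot be told apart within a dose, as at 0 Gy.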

How the data were processed

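Total RNA of the 6 unirradiated samples was hybridised by the authors to single-colour Agilent mouse miRNA arrays and scanned with Feature Extraction 11.5.1.1, per the file headers, and the deposited values are spot intensities, not yet normalized between arrays. The labelling that the labels describe is for poly(A)+ RNA, and that of the miRNA arrays is not given in the sources used here. The values that the authors deposited for the series, linear intensities with array medians of 0.01 to 0.148 and 31.7 to 83.0% of values at a floor of 0.01, were used on the log2 scale as an alternative only, and whether they went through the normexp and quantile steps that the study's methods name is not given in the sources used here.

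From the median spot and background intensities, normexp (offset 0) and quantile normalization over the 6 arrays were run in limma 3.58.1 (R 4.3.3), control spots were dropped, outlier spots left out, spots of a probe averaged on the log2 scale and the brightest probe of each miRNA taken. A probe was well above background where at least 0.5 of its spots were. Lung was tested against liver with lmFit and eBayes, two-sided, and p-values measure the spread between 3 samples a tissue. Another tested probe existed for 147 of the 162 called miRNAs, never with an opposite call, and 33 had one that was not called. The mRNA arrays, deposited as intensities too, were handled the same way, with probes named through RefSeq accessions (34566 of 56605). The script was tested on simulated data.

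The miRNAs named in the text are members of 22 lists, the 10 largest differences in each direction among miRNAs measured in both tissues, and the 10 largest lower bounds in each direction. Members and lists were chosen with earlier results of these data known, and some miRNAs (miR-8110, miR-101b-3p, miR-378a-3p, miR-193a-3p, miR-193b-3p, miR-652-5p and miR-652-3p, miR-181b to miR-181d, miR-338-3p, miR-22-3p, miR-5100, miR-130b-3p) after their values were seen. MiR-326-3p, miR-26a-5p, miR-3968, miR-450a-5p, miR-542-3p and miR-301a-3p were chosen in that way too and are among the 108 miRNAs followed through the alternatives. The alternatives changed the offset, signal, scaling, filters, probe rule, blocks and samples.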

Additional observations from a re-analysis of the deposited data

Results flagged for a closer look

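The lung minus liver difference at each dose was set against that at 0 Gy in a limma fit over all 36 miRNA arrays, and 3 miRNAs of 362 changed their tissue difference at some dose. At 2 Gy the tissue difference of miR-142a-3p, a miRNA of blood cells, moved by -1.01 (SE 0.17, adjusted p = 0.000921), as its level changed by -1.45 in lung and -0.44 in liver against 0 Gy. At 12 Gy that of miR-378a-5p moved by 1.66 (SE 0.39, adjusted p = 0.0316), with changes of 0.37 in lung and -1.29 in liver. At 12 Gy that of miR-7080-3p moved by 1.53 (SE 0.35, adjusted p = 0.0278), with changes of 0.29 in lung and -1.24 in liver. At 0 Gy miR-7080-3p was above background on only 2 of 3 arrays in each tissue. Each p was adjusted over the 362 miRNAs within a dose and not across doses. At 1, 4 and 8 Gy no miRNA passed both the size and the adjusted p. The lungs at 0, 2 and 12 Gy lay on 3 different slides, the livers at 0 Gy on slide 1, those at 2 Gy on slides 1 and 2 and those at 12 Gy on slides 2 and 3, and the part of the slide in these changes was not tested.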

How the results depend on the processing

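For liver and lung samples that share a number, the correlations of their deviations from the tissue means were 0.016, 0.071 and -0.034. With 3 samples a tissue, these values cannot tell whether a number marks 1 animal. The samples were treated as unpaired. A fit with the replicate number as a block called 99 higher in lung and 63 in liver and changed no call of the 108 miRNAs followed. Leaving out each sample in turn gave 90 to 110 higher in lung and 55 to 67 in liver. Calls in lung and liver were 102 and 55 with outlier spots kept, 99 and 65 with no filter on dim probes, 95 and 56 with probes above background on all arrays of 1 tissue, 92 and 60 with probes averaged, 99 and 64 with 36 arrays normalised together and 144 and 46 with arrays centred on the 144 miRNAs measured throughout. They were 64 and 54 with a normexp offset of 50, 157 and 68 with the processed signal, 174 and 55 with that signal centred, 46 and 194 with the 75th percentile of detected probes, 64 and 131 with that percentile centred, 210 and 7 with the 75th percentile of all probes, 78 and 133 with the total gene signal, 202 and 11 with the deposited series values, and 180 and 110 of 655 probes with every probe tested alone. The centred settings and the total gene signal were chosen after seeing the data. Host gene mRNAs, refitted on the mRNA arrays, gave 14 to 18 higher in lung and 4 to 7 in liver.

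Signs turned for 31 of the 108 miRNAs, 55 times in all, and the cause was not tested. The turned differences under the 75th percentile of all probes were miR-212-3p 0.086, miR-22-3p 0.10, miR-8110 0.26, miR-378a-3p 0.30, miR-193a-3p 0.59, miR-92a-3p 0.81, miR-494-3p 0.86, miR-19b-3p 1.10, miR-20a-5p 1.24, miR-203-3p 1.29, miR-19a-3p 1.43, miR-20b-5p 1.48. Under the deposited series values they were miR-193a-3p 0.0038, miR-92a-3p 0.23, miR-494-3p 0.32, miR-19b-3p 0.52, miR-20a-5p 0.66, miR-203-3p 0.82, miR-19a-3p 0.92, miR-20b-5p 0.94. Under the 75th percentile of detected probes they were miR-351-5p -1.09, miR-141-5p -1.06, miR-376a-3p -1.02, miR-200a-5p -1.01, miR-377-3p -0.97, miR-329-3p -0.93, miR-434-3p -0.76, miR-154-5p -0.75, miR-200b-5p -0.74, miR-379-5p -0.68, miR-300-3p -0.61, miR-34b-3p -0.39, miR-155-5p -0.34, miR-133a-5p -0.32, miR-182-5p -0.30, miR-24-1-5p -0.27, miR-205-5p -0.098, miR-127-3p -0.088, miR-130b-3p -0.025. With that percentile centred they were miR-351-5p -0.49, miR-141-5p -0.46, miR-376a-3p -0.42, miR-200a-5p -0.41, miR-377-3p -0.37, miR-329-3p -0.34, miR-434-3p -0.17, miR-154-5p -0.16, miR-200b-5p -0.15, miR-379-5p -0.086, miR-300-3p -0.013. With the total gene signal they were miR-351-5p -1.57, miR-141-5p -0.62, miR-200b-5p -0.34, miR-200a-5p -0.31, miR-329-3p -0.029. MiR-203-3p lost its call without liver sample 1 or 21 and without lung sample 1 or 21, at -1.31 to -1.06.

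With 3 arrays a tissue, small differences between dim miRNAs were limited by signal over background, and 1519 miRNAs had no level in either tissue.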
